A study of Mus musculus with 2 samples.

Results

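The regions of open chromatin around 9 genes of cytokine signalling were compared between basal epidermal cells of stretched and of untreated mouse skin. The genes were the receptor subunits Il4ra, Il6st and Osmr, the transcription factors Stat3, Stat5a, Stat5b and Stat6, and the feedback inhibitors Socs1 and Socs3. A region belonged to a gene when that gene's annotated span (RefSeq, build GRCm38) was the nearest protein-coding span within 50 kb, a region inside a span counting as distance 0 and the shortest span being taken on ties. With at least 20 counts summed over both libraries, 73 of 94857 regions belonged to the 9 genes, out of 109257 merged regions in all, and 8 further regions of these genes held fewer counts.

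The assay was ATAC-seq: the enzyme Tn5 cuts and tags DNA where chromatin is open, and sequenced fragments pile up there. The stretched library came from 1 CD1 mouse whose back skin had undergone tissue expansion by force, and the control library from 1 CD1 mouse that was left untreated. CD1 is an outbred stock, so the animals may also differ in their genomes, and no allele, transgene or drug is given for either. From each mouse 10000 interfollicular cells were sorted as positive for ITGA6, the integrin subunit that holds basal cells to the basement membrane, and negative for CD34, which marks stem cells of the hair follicle. With 1 mouse per group there is no spread between animals, no test was made, and every interval below covers counting error only.

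Cytokines of the interleukin 6 family bind receptor complexes that share the subunit encoded by Il6st (gp130), while interleukins 4 and 13 signal through the subunit encoded by Il4ra. The receptors carry JAK kinases, which phosphorylate STAT proteins, and the STATs then bind DNA as dimers and switch genes on, among them the SOCS genes, whose products damp the receptors in turn. In skin, STAT3 in keratinocytes is known for its part in wound closure and STAT6 for relaying interleukin 4 and 13 signals that weaken the barrier.

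Promoter sequences are printed for Socs3, the one gene of the 9 with a STAT motif at its start, and for Il6st. The start region of Il6st had the highest fold of the 9. None of the 9 start regions passed the 2-fold rule given below. Each sequence is the 250 bases before a RefSeq start site in GRCm38, written 5′ to 3′ on the gene's own strand. Capitals mark the STAT motif.
Socs3 (chr11:117969367-117969616, minus strand): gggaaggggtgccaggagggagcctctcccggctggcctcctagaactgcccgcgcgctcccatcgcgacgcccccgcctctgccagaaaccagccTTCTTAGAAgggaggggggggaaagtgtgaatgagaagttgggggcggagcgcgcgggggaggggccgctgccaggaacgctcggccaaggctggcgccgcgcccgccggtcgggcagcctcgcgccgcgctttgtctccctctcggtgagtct
Il6st (chr13:112463820-112464069, plus strand): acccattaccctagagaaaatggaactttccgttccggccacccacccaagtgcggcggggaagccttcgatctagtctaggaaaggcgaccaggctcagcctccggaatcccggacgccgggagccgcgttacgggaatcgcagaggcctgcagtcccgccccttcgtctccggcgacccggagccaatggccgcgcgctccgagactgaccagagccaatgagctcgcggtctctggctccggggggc
The motif searched was TTC and GAA with 3 bases between them, which reads the same on both strands. RefSeq windows of 250 bases before and 50 after a start were found for all 9 genes (11 windows). The match in Socs3, TTCTTAGAA, begins 154 bases before the start and lies inside the start region. Of 32817 windows of all genes, 8.29% held such a match. Osmr held the only match of an AP-1 motif, TGATTCA, whose first base lies 3 bases past the start base, and 7.81% of all windows held one. None of the 9 genes had TTC and GAA with 4 bases between them, the spacing STAT6 prefers (6.94% of all windows), or with 2 bases between them (8.51%).

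The stretched library held 11803785 counts over the merged regions (median 27) and the control library 8820178 (median 30). Very large regions, 10 in number, took 48.9% of the stretched and 34.5% of the control counts. Outside them the libraries held 6027023 and 5776423 counts. The fold is stretched over control after TMM scaling, a method that ignores the most extreme regions, so that equal counts give a fold of 1.06. Basal keratinocyte markers (Krt5, Krt14, Itga6, Itgb4, Col17a1 and Trp63) all had regions and summed to 5601 counts in the stretched and 5448 in the control library (fold 1.09, 95% interval 1.05 to 1.13). Krt14 (1.20), Itga6 (1.17) and Trp63 (1.22) had folds above 1, and Krt5 (0.979), Itgb4 (0.974) and Col17a1 (0.891) below it. Of the sorting markers, Itga6 had 1385 and 1256 counts over 19 regions, and Cd34 had 618 and 471 over 4. The marker sums of other cells were lower in the stretched library for suprabasal keratinocytes (939 and 1137, fold 0.873, 4 of 5 genes with a region), hair follicle (3341 and 3912, 0.903, 5 of 5) and T cells (623 and 918, 0.717, 4 of 6). The same held for fibroblasts (890 and 1162, 0.809, 4 of 5), melanocytes (666 and 809, 0.870, 4 of 5) and endothelium (873 and 1048, 0.880, 4 of 4). Langerhans cell and macrophage markers summed to 583 and 493 counts (fold 1.25, 5 of 5 genes). Adgre1 (316 and 212), Cd74 (55 and 37) and Itgam (112 and 98) had folds above 1, while Cd207 (49 and 74) and Csf1r (51 and 72) had folds below 1. The suprabasal sum likewise held genes of either direction, Krt1 (165 and 277) and Krt10 (216 and 382) being lower and Ivl (249 and 215) and Lor (309 and 263) higher. Folds above 1 also occurred at Cd34 in the hair follicle list (1.39), Ptprc in T cells (1.30), Pmel in melanocytes (1.16) and Cdh5 in endothelium (1.43). The other genes with a region in the hair follicle, T cell, fibroblast, melanocyte and endothelium lists had folds below 1. Flg, Cd3d, Trdc, Lum and Tyr had no region with 20 counts. The part these cells had in the results was not tested, and a different number of cells of a type cannot be told apart from a different accessibility per cell.

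Around the 9 genes the stretched library had higher counts at Il4ra, at 3 of the 12 regions downstream of Socs3 and, by less, at the start of Il6st, and lower counts at 2 regions upstream of Osmr and over Stat5b. Regions downstream of Socs3 were level as a whole, and with the scaling used no region of a STAT gene was called higher or lower. A region was called higher or lower when the fold was at least 2 either way and the exact 95% interval excluded 1. By this rule 7 of the 73 regions (9.59%) were higher in the stretched library, against 7.22% of all 94857 regions, and 2 (2.74%) were lower, against 8.71% of all regions. The share called higher is thus near the background, and with 2 regions the share called lower rests on few. The median log2 fold was 0.18 for the 73 regions and -0.0029 for all regions. This order depended on the count. Under 100 counts the medians were 0.26 for these genes and -0.11 for all regions, and with at least 100 counts 0.02 and 0.13. In 42 of the 73 regions the fold was above 1 and in 31 below it. All 7 higher regions belonged to Il4ra (4 of 10) and Socs3 (3 of 14), and both lower regions to Osmr (2 of 17), while the 49 regions of the other 7 genes held 0 higher and 2 lower calls. Under scaling by total counts, which shifted the typical region to a log2 fold of -0.50, 0 of the 73 regions were called higher and 11 lower. Under scaling by the counts outside the 10 very large regions, with a shift to -0.14, 5 were higher and 4 lower, a pair of Stat5b regions being added to the lower ones. The directions below are therefore relative to the typical region.

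**Figure D1:**
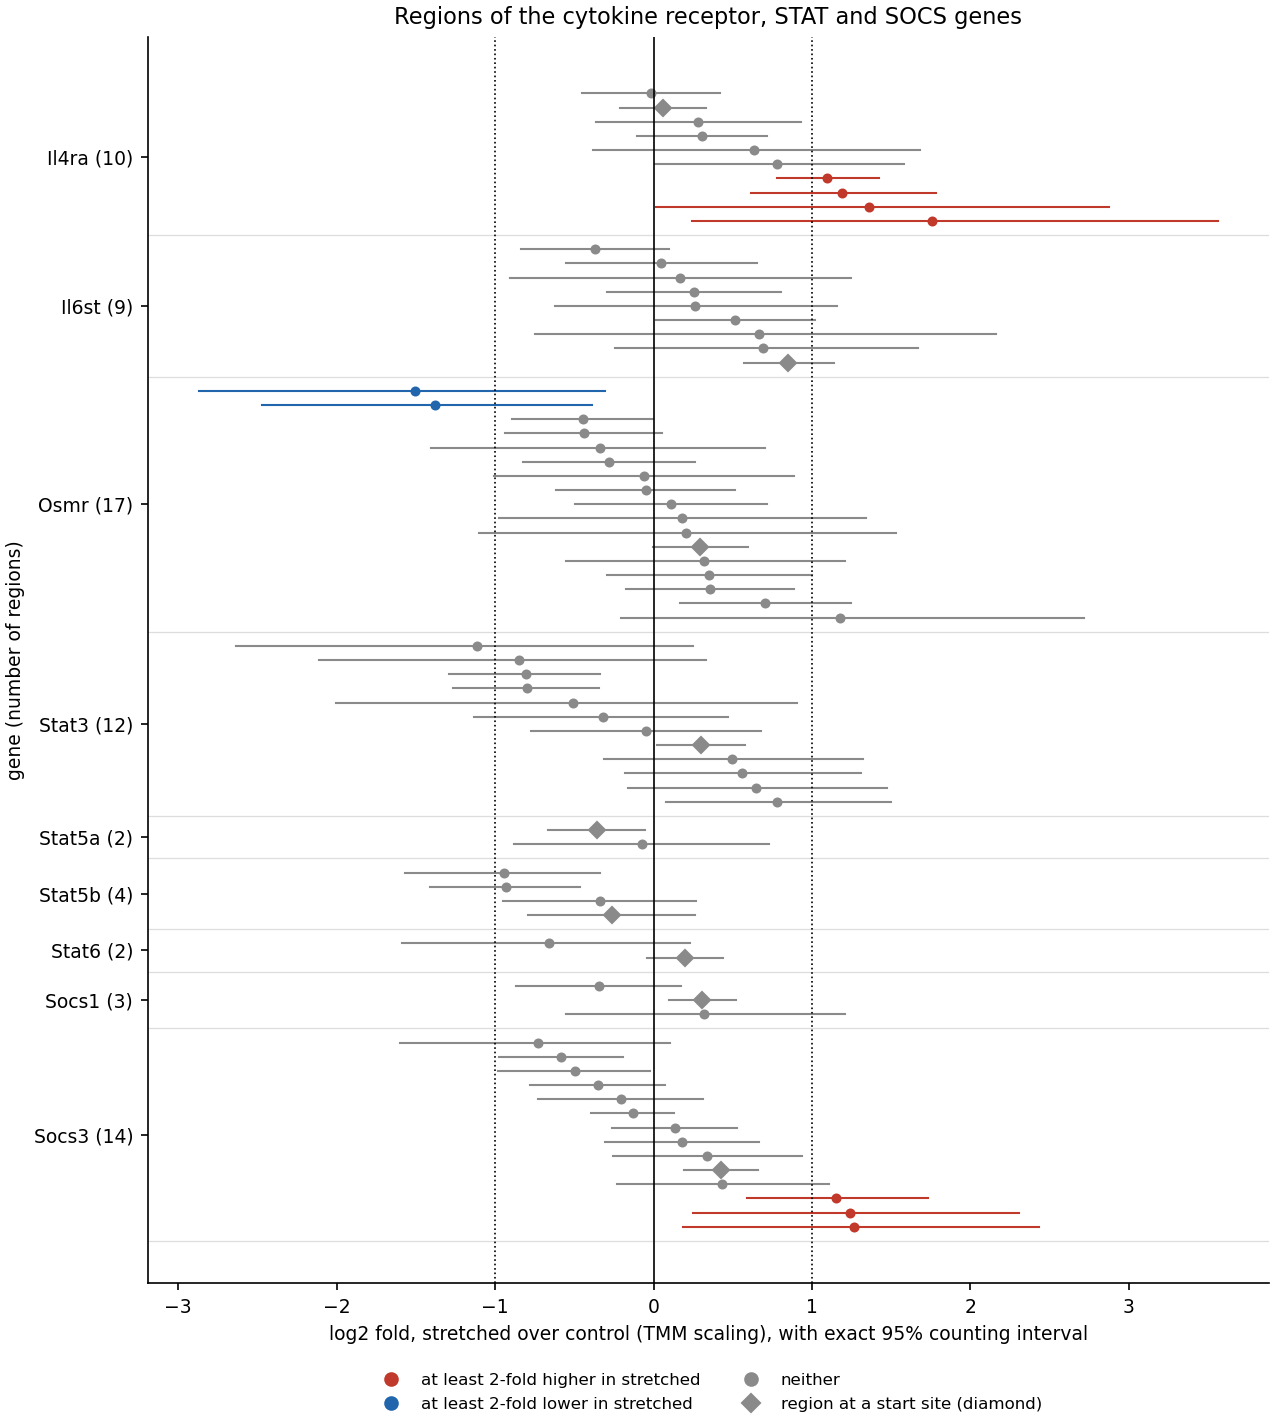
Log2 fold (stretched over control) of all 73 regions, grouped by gene, with exact 95% counting intervals, and dotted lines at a 2-fold difference either way. The 7 regions called higher (red) all belong to Il4ra and Socs3 and the 2 called lower (blue) to Osmr, and the diamonds at start sites all lie between the dotted lines.

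Of the receptor genes, Il4ra, the subunit shared by the receptors of interleukins 4 and 13, had higher counts in the stretched library away from its start and about the same count at it. Its 10 regions (gene at chr7:125552271-125579474, plus strand) summed to 897 counts in the stretched and 671 in the control library, a fold of 1.41 (1.28 to 1.56), and 9 of the 10 folds were above 1. Across all genes with a region, 36.1% of 16945 had an interval above 1 and 18.6% one below it. Of the 9 genes, 3 (Il4ra, Il6st and Socs1) lay above 1 and 2 (Stat5a and Stat5b) below it, near the background shares. At the start region of Il4ra the counts were 228 and 231 (fold 1.04, 0.865 to 1.26). The authors' peak there did not follow the counts, with a pileup of 79 in the stretched and 51 in the control library and a fold enrichment of 7.47 and 4.59. Fold enrichment had a higher median in the stretched list (5.22 against 4.46 in the control list). It was higher there at all 9 start regions described here, though not at every region. The other 9 regions together held 669 counts in the stretched and 440 in the control library (fold 1.61, 1.42 to 1.82).

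The largest called region of Il4ra, chr7:125578736-125581966, spans the 3′ end of the gene and held 249 counts in the stretched and 123 in the control library, a fold of 2.14 (1.72 to 2.68). It is 3231 bases long, and the authors listed 3 peaks in it for the stretched library and 1 for the control. The tallest summits there had a pileup of 40 and 26 fragments and a fold enrichment of 3.50 and 3.83 over the local background, so the enrichment at the summit did not differ in the direction of the count. A narrower region 12340 bases upstream of the start, chr7:125539108-125539931, held 82 and 38 counts (fold 2.28, 1.53 to 3.44). Here the authors' peak lists moved the same way, with a pileup of 60 in the stretched and 16 in the control library, a fold enrichment of 12.5 and 3.85, and a -log10 q of 46.5 and 4.77. The remaining called regions of Il4ra were small, with 16 and 5 counts 16815 bases upstream (chr7:125534652-125535456, fold 3.38, 1.18 to 11.8) and 17 and 7 counts 10418 bases downstream (chr7:125589892-125590242, fold 2.57, 1.01 to 7.32). Neither held a listed peak. The region 24033 bases upstream had 39 and 24 counts and a fold of 1.72 (1.01 to 2.98). Inside the gene the 4 regions between the start and the 3′ end had folds of 0.989 to 1.55, each with an interval that included 1. The 3′ region fell short of 2-fold when libraries were scaled by the counts outside the large regions when a trend on count was removed, and when the median of regions alike in count and gene density was removed (chosen after the data were seen). The region 12340 bases upstream was called in all of these.

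The neighbouring genes of Il4ra had lower folds than it. Nsmce1, on the upstream side, had 674 counts in the stretched and 536 in the control library (fold 1.33, 1.19 to 1.49), and Gtf3c1, beyond the 3′ end, had 422 and 373 (fold 1.20, 1.04 to 1.38). These intervals overlap with that of Il4ra. Il21r, the receptor gene next to Il4ra, had no region with 20 counts.

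Il6st, which encodes the signalling subunit gp130, had its difference in counts at the start site. The start region, chr13:112463403-112464578, whose promoter sequence is printed above, held 280 counts in the stretched and 164 in the control library, a fold of 1.80 (1.48 to 2.201). Its authors' peak had a pileup of 132 and 73 and a fold enrichment of 9.97 and 8.02, which stood at the 85.4 and 86.8 percentiles of the 2 lists. The start peak of Il4ra stood at the 71.9 and 52.9 percentiles. The other 8 regions summed to 340 and 321 (fold 1.12, 0.958 to 1.31). All 9 together came to 620 and 485 counts, a fold of 1.35 (1.20 to 1.52), with 8 of 9 folds above 1. The region farthest upstream was the exception, with 69 and 94 counts (fold 0.776, 0.560 to 1.07). No region of Il6st passed the 2-fold rule in either direction. Next to it, Il31ra, which pairs with the oncostatin M receptor subunit to bind interleukin 31, had a fold of 1.52 (1.31 to 1.77) over 6 regions, and Ankrd55 on the other side had one of 1 (0.924 to 1.08) over 22.

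Osmr encodes the subunit that joins gp130 in the oncostatin M receptor. Its 17 regions summed to 807 counts in the stretched and 839 in the control library, a fold of 1.02 (0.922 to 1.12), with 9 of the folds above 1. The start region, chr15:6873395-6875168, held 203 and 175 counts (fold 1.23, 0.997 to 1.51). Both lower regions lay upstream of the gene, where the 7 regions had folds of 0.352 to 1.63, 6 of them below 1, and summed to 291 and 358 (fold 0.859, 0.733 to 1.005). The 9 regions inside the gene had folds of 0.737 to 2.26, 7 of them above 1. The first of the lower upstream regions, chr15:6882283-6882929, 7315 bases from the gene, had 12 counts in the stretched and 33 in the control library (fold 0.384, 0.181 to 0.764). The second, chr15:6883951-6884302, 8983 bases away, had 8 and 24 (fold 0.352, 0.137 to 0.810) and no listed peak. At the first, the authors' peak lists went against the counts, with a pileup of 16 and 14 and a fold enrichment of 4.67 and 3.40 (a ratio above that of the list medians), and the stretched count of 12 was smaller than the pileup of 16 at its own summit. A count below the pileup occurred in 4.98% of all regions with a stretched summit and 2.33% of those with a control summit. Farther upstream, chr15:6909193-6910205 had 77 and 50 counts (fold 1.63, 1.12 to 2.37), and a region inside the gene had a fold of 2.26 on 15 and 7 counts, with an interval (0.869 to 6.57) that included 1.

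**Figure D2:**
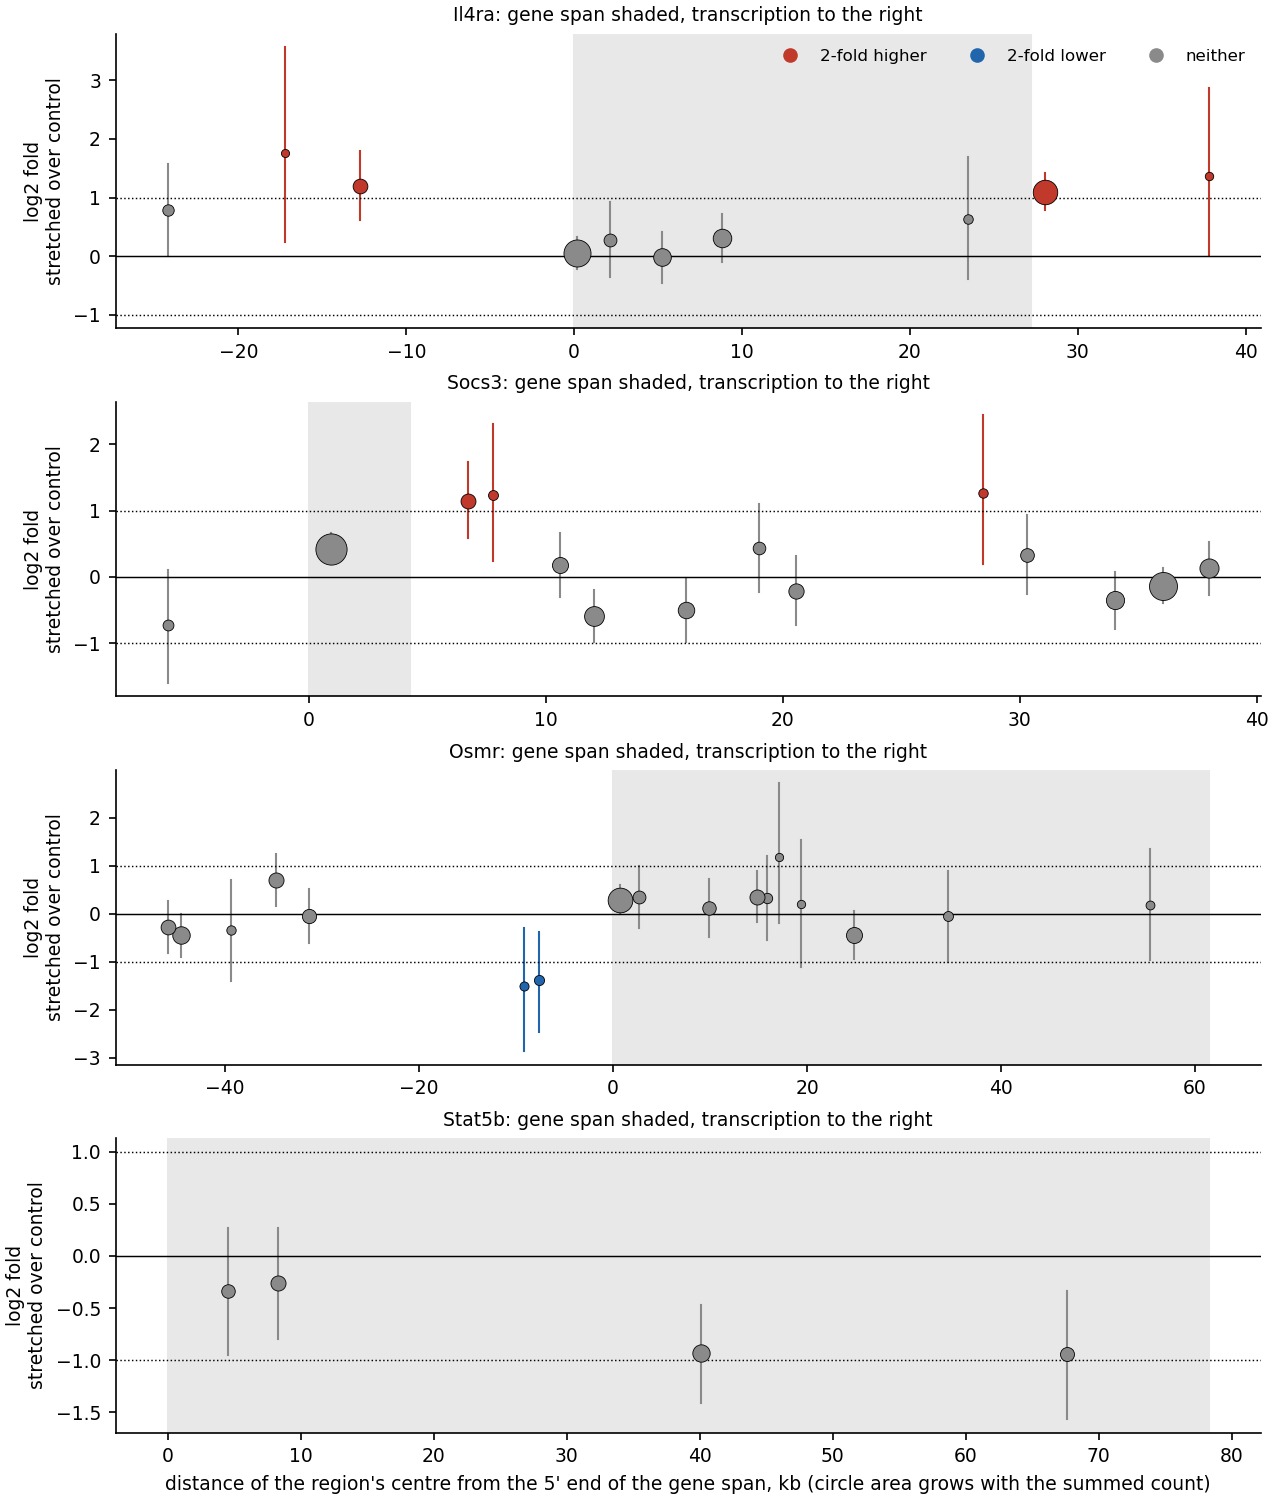
Log2 fold (stretched over control, exact 95% counting interval) of each region of Il4ra, Socs3, Osmr and Stat5b against the distance of its centre from the 5′ end of the gene span, with the span shaded and circle area growing with the summed count. The 4 higher regions of Il4ra flank the gene or its 3′ end, the 3 of Socs3 lie downstream, the 2 lower regions of Osmr lie upstream, and all 4 points of Stat5b are below 0.

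Among the STAT genes, Stat5a and Stat5b had lower sums in the stretched library, while the intervals of Stat3 and Stat6 included 1. Of the 20 STAT regions, 0 were called in either direction, 14 had a fold below 1 (47513 of 94857 over all regions), and the median log2 fold was -0.33, with 18 of the 20 in a single stretch of chromosome 11. The lowest fold of a gene's sum was that of Stat5b, which encodes a STAT of growth hormone and cytokine signalling. Its 4 regions summed to 191 counts in the stretched and 315 in the control library, a fold of 0.641 (0.533 to 0.769), and all 4 folds were below 1. An internal region, chr11:100818338-100819465, had 58 and 117 counts (fold 0.524, 0.376 to 0.724), and another, chr11:100790726-100791967, had 35 and 71 (fold 0.521, 0.337 to 0.792). Both lie just short of the 2-fold limit, and both passed it under scaling by the counts outside the very large regions. The start region of Stat5b, over the RefSeq start at position 100850581, held 56 and 71 counts (fold 0.834, 0.576 to 1.20). Another RefSeq start of the gene, at position 100822570, had no region over it and lay 3105 bases from the first internal region. The authors' fold enrichment was lower in the stretched library at the second of the internal regions (4.12 and 6.11). It was higher at the first (9.17 and 7.51), the start region (4.85 and 4.45) and the remaining region (5.54 and 3.46), against the counts. At the start region the ratio of these values was below that of the list medians. The authors' pileup is in fragments and was not scaled. Fewer fragments were kept in the stretched library (23876613) than in the control library (31944854). Unscaled, stretched values were lower at the second internal region (14 and 26), the first (33 and 43) and the start region (21 and 34). At the remaining region the unscaled pileup was 31 in each library.

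Stat5a, the close paralogue of Stat5b, begins 346 bases from the end of the Stat5b span and had 2 regions. At its start region, chr11:100859512-100860888, which covers both RefSeq starts of the gene (positions 100859656 and 100860484), there were 155 counts in the stretched and 210 in the control library (fold 0.780, 0.630 to 0.964). The authors' pileup at this peak was 79 and 73 and the fold enrichment 9.86 and 6.34, against the direction of the counts. The region lies 508 bases from the Stat5b span as well, so it may serve either gene. The other region held 27 and 30 counts (fold 0.951, 0.544 to 1.66), and the sum was 182 and 240 (fold 0.801, 0.657 to 0.976).

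Stat3, the main STAT of gp130 receptors, had regions that went both ways. The start region, chr11:100938780-100940184, held 235 counts in the stretched and 202 in the control library (fold 1.23, 1.01 to 1.49). The other 11 regions summed to 357 and 445 (fold 0.848, 0.736 to 0.977). Inside the gene, chr11:100897321-100898494 had 59 and 109 counts (fold 0.572, 0.409 to 0.792) and chr11:100910421-100911419 had 63 and 116 (fold 0.574, 0.415 to 0.787), while chr11:100893369-100894291 had 47 and 29 (fold 1.71, 1.06 to 2.82). The 10 regions inside Stat3 ranged from 0.462 to 1.71, with 6 of them below 1. The lowest, on 7 and 16 counts, was past 2-fold, but its interval (0.161 to 1.19) included 1. The authors' unscaled pileup moved with the count at the first of these (26 and 48) and at the third (42 and 27). At the second it was 33 in each library, of which the stretched one kept fewer fragments. Over all 12 regions the counts were 592 and 647 (fold 0.967, 0.863 to 1.08).

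Stat6, the STAT that responds to interleukins 4 and 13, had 2 regions. Its start region, chr10:127641708-127644268, held 300 counts in the stretched and 276 in the control library (fold 1.15, 0.972 to 1.36). The region upstream held 18 and 30 (fold 0.634, 0.333 to 1.17), so the median of the log2 folds was -0.23 while the fold of the sums (318 and 306) was 1.10 (0.936 to 1.29). The receptor gene Il4ra thus had an interval above 1 and its STAT partner one that included 1, and the difference between them was not tested.

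Stat5b, Stat5a and Stat3 lie within 158864 bases of each other on chromosome 11. Genes beside them that have no STAT role also had low folds in the stretched library, among them Cavin1 (296 and 439 counts, fold 0.713, 0.613 to 0.828), Atp6v0a1 (407 and 619, 0.695, 0.612 to 0.789) and Ghdc (72 and 119, 0.639, 0.470 to 0.864), while Hcrt had 48 and 44 (1.15, 0.750 to 1.78). On chromosome 11 as a whole the median log2 fold was -0.21, with 3.03% of 6529 regions higher and 13.2% lower. The 18 STAT regions there sit among 44 to 46 protein-coding genes centred within 500 kb. In the 3557 regions of all chromosomes with over 40 such genes, 3.23% were higher, 9.76% lower and the median was -0.12. Il4ra, Il6st and Osmr sit among 6 to 10 genes, where 8.28% of 25766 regions were higher, 7.15% lower and the median was 0.08. The part of the chromosome or of gene density in the STAT and receptor values was not tested. With the median of regions alike in count and gene density removed, a setting chosen after the data were seen, 7 of the 73 regions were higher and 2 lower, with 3 of the higher ones at Il4ra, 3 at Socs3 and 1 inside Stat3 (chr11:100893369-100894291).

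Of the inhibitors, Socs3, which blocks gp130 and its JAK kinases, had 3 higher regions downstream of the gene among others that were lower or level. The 12 downstream regions together held 951 counts in the stretched and 1011 in the control library (fold 0.994, 0.909 to 1.09). Its 14 regions summed to 1317 counts in the stretched and 1318 in the control library, a fold of 1.06 (0.978 to 1.14), with 8 folds above 1. The start region, chr11:117968694-117970150, which holds the STAT motif of the sequence above, had 346 and 272 counts (fold 1.34, 1.14 to 1.58). Its pileup was 119 and 77. Just downstream, 2109 bases past the gene, chr11:117963322-117963970 had 84 and 40 counts (fold 2.22, 1.51 to 3.32). The authors listed a peak there in the stretched library, with a pileup of 56, a fold enrichment of 5.38 and a -log10 q of 22.1, and none in the control library. The region beside it, chr11:117962317-117962859, had 29 and 13 counts (fold 2.36, 1.19 to 4.94), and a region 23907 bases past the gene, chr11:117941579-117942172, had 25 and 11 (fold 2.40, 1.14 to 5.41). Neither held a listed peak.

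Other downstream regions of Socs3 went the other way. The region chr11:117957986-117958655 held 91 counts in the stretched and 144 in the control library (fold 0.668, 0.508 to 0.874), with an unscaled pileup of 58 and 81. Another, chr11:117954096-117954742, held 63 and 94 (fold 0.708, 0.506 to 0.985). The tallest downstream region, chr11:117933825-117934800, held 229 and 265 (fold 0.913, 0.762 to 1.09). The one region upstream held 20 and 35 (fold 0.604, 0.330 to 1.07). The next genes past the start of Socs3 had folds below 1, Pgs1 with 613 and 823 counts (0.787, 0.708 to 0.875) and Dnah17 with 491 and 705 (0.736, 0.655 to 0.827).

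Socs1, an inhibitor of interferon and interleukin 4 signalling, had 3 regions, summing to 479 counts in the stretched and 436 in the control library (fold 1.16, 1.02 to 1.32). Most of them fell in the start region, chr16:10784584-10787120, with 397 and 339 (fold 1.24, 1.07 to 1.43) and a pileup of 108 and 60. The downstream pair summed to 82 and 97 (fold 0.893, 0.658 to 1.21). The direction of the Socs1 sum turned under 3 of the settings tried, with folds of 0.821 under scaling by total counts, 0.866 with a trend on count removed, and 0.904 with the median of like regions removed.

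**Figure D3:**
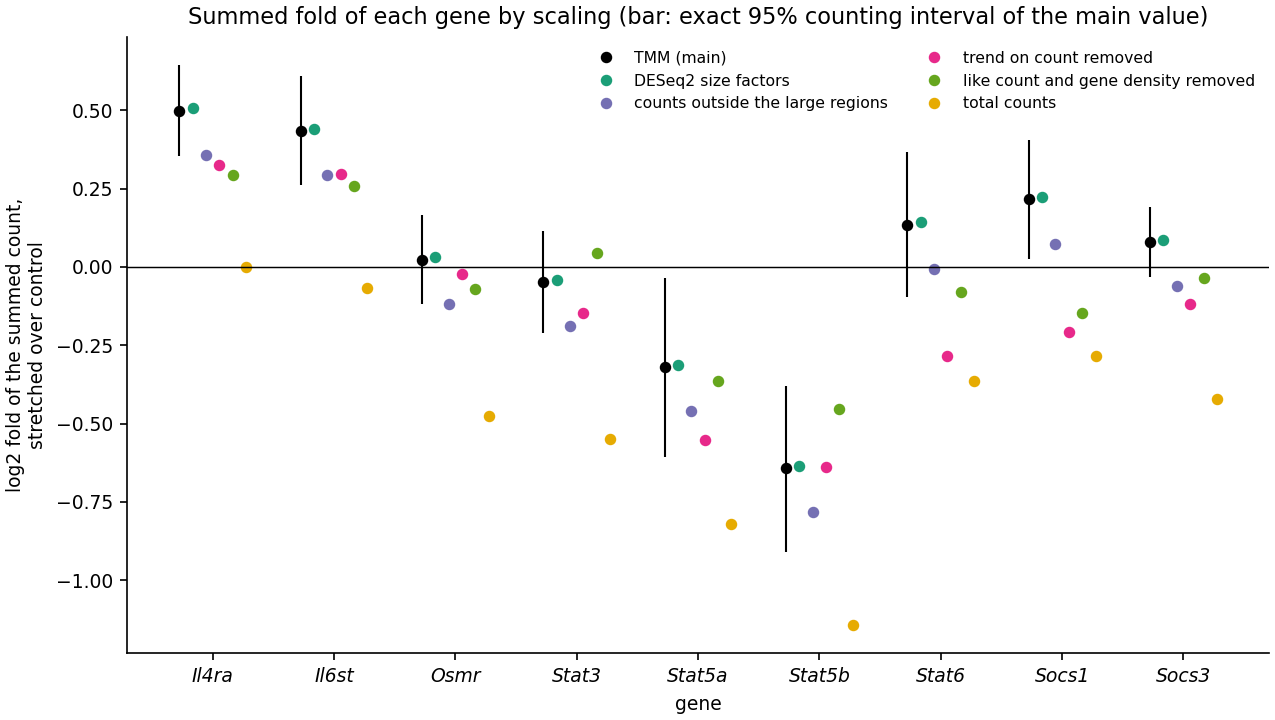
Log2 fold of each gene's summed count (stretched over control) under TMM scaling, with its exact 95% counting interval, and under 5 other ways to scale or centre the counts. Under total scaling all 9 genes lie below 0. In the other settings Il4ra and Il6st lie above 0 and Stat5a and Stat5b below it, and the other 5 genes lie on either side.

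At the start sites levels can be set side by side per length, as TMM-scaled CPM per kb (CPM being counts scaled to a common library size, exact 95% Poisson interval). In the stretched library the order began with Il6st at 24.0 (21.3 to 27.0) and Socs3 at 23.9 (21.5 to 26.6), whose intervals overlap. Stat3 at 16.9 (14.8 to 19.1) and Socs1 at 15.8 (14.2 to 17.4) followed. Il4ra at 12.3 (10.7 to 14.0), Stat6 at 11.8 (10.5 to 13.2), Osmr at 11.5 (10.0 to 13.2) and Stat5a at 11.3 (9.62 to 13.3) did not differ beyond their intervals. Stat5b was lowest at 4.46 (3.37 to 5.80). In the control library Socs3 came first at 17.8 (15.8 to 20.04), followed by Stat5a at 14.5 (12.6 to 16.6), Stat3 at 13.7 (11.9 to 15.7), Il6st at 13.3 (11.3 to 15.5), Socs1 at 12.7 (11.4 to 14.2) and Il4ra at 11.8 (10.3 to 13.4), neighbours whose intervals overlap. Stat6 at 10.3 (9.10 to 11.6) and Osmr at 9.41 (8.06 to 10.9) came next, and Stat5b was again lowest at 5.36 (4.18 to 6.75). The median of all start regions was 9.30 in the stretched and 7.77 in the control library, so 8 of the 9 genes lay above it in both. None of the 9 start regions passed the 2-fold rule, against 9.23% higher and 3.20% lower among 11497 start regions of all genes, and their median log2 fold of 0.29 was close to the 0.27 of all start regions.

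**Figure D4:**
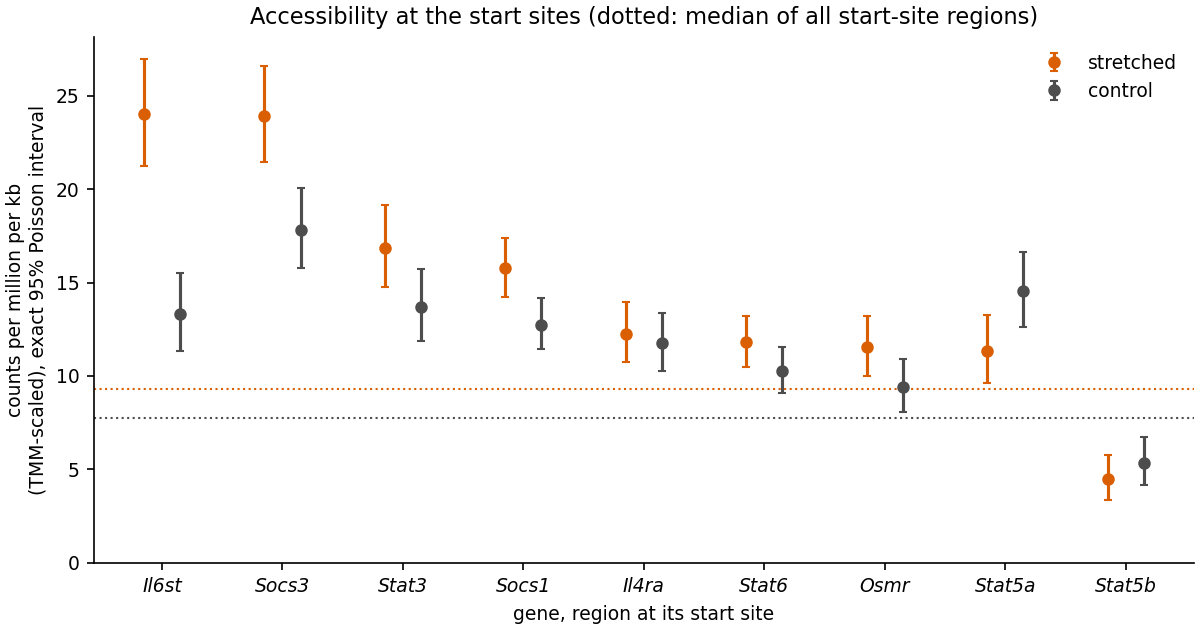
TMM-scaled CPM per kb at the start region of each gene in the stretched (orange) and the control (grey) library, with exact 95% Poisson intervals and dotted lines at the median of all start regions. Il6st stands at 24.0 in the stretched against 13.3 in the control library, and Stat5a and Stat5b are the genes with the lower value in the stretched library.

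The called regions thus all lay away from start sites. Of the 30 regions inside the genes, 1 was higher and 0 lower (all genes 6.09% and 9.78%). Of the 18 downstream regions 4 were higher and 0 lower, and of the 16 upstream regions 2 were higher and 2 lower, where regions outside genes within 50 kb had 7.25% higher and 9.20% lower over all genes. Among regions with at least 100 counts, 3 of 36 were higher and 0 lower (8.33% higher, against 6.16% higher and 2.87% lower of 35140 in all). Those 3 were the region 12340 bases upstream of Il4ra, the one at its 3′ end and the one 2109 bases downstream of Socs3, and these 3 were also the ones called with the stricter of the intervals tried. Just inside the count minimum stood regions of Il6st (12 and 8 counts) and Stat3 (8 and 12), and just outside it a region of Il6st (12 and 7). The farthest region inside the distance limit lay 45452 bases from Osmr (53 and 68 counts), and the nearest outside it 52547 bases from Osmr (36 and 38, fold 1.001).

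Peaks listed by the authors were a further readout of the same libraries. Of the 73 regions, 48 (65.8%) held a peak in both lists, against 60.2% of all regions, 7 (9.59%) in the stretched list alone (14.9% of all), 5 (6.85%) in the control list alone (9.33%) and 13 (17.8%) in neither (15.6%). The 7 higher regions comprised 2 with a peak in both lists, 1 with a peak in the stretched list alone and 4 with none. The 2 lower regions comprised 1 with a peak in both lists and 1 with none.

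The other genes of the pathway were taken from 7 lists of 64 genes, of which 62 had a region. Of their 383 regions 34 (8.88%) were higher in the stretched library and 19 (4.96%) lower, with a median log2 fold of 0.08. Over all regions the shares were 7.22% higher and 8.71% lower. Among genes whose products transmit the signal, the JAK kinases had 3 higher and 3 lower of 40 regions (7.5% each), near those shares. The other STATs had 2 higher (10%) and 1 lower (5%) of 20. In the JAK list Jak2, a kinase that gp130 uses among others, summed to 871 and 627 counts over 10 regions, 1 of them higher and 2 lower (fold 1.47, 1.32 to 1.63). Stat4, the STAT of interleukin 12, had 2 higher and 1 lower of 15 regions (541 and 470 counts, fold 1.22, 1.07 to 1.38).

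For the negative regulators the shares of all regions were again 7.22% higher and 8.71% lower. The other SOCS genes had 4 higher (11.8%) and 5 lower (14.7%) of 34 regions. All 4 higher ones belonged to Socs6, with 1111 counts in the stretched and 660 in the control library over 11 regions (fold 1.78, 1.61 to 1.96). The other inhibitors, the PIAS proteins and phosphatases, had 0 higher and 3 lower (8.57%) of 35 regions with a median log2 fold of -0.15. Among them Ptpn11, a phosphatase that binds gp130, had 1 lower of 5 regions (356 and 460 counts, fold 0.818, 0.710 to 0.941).

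Ligand genes had 2 higher (5.13%) and 0 lower of 39 regions (median log2 fold -0.05), against 7.22% and 8.71% of all regions. Il4 and Osm had no region with 20 counts. Il24, a STAT3-activating cytokine, had 1 higher of 4 regions (372 and 258 counts, fold 1.52, 1.30 to 1.79). The other receptors had 9 higher (8.33%) and 4 lower (3.70%) of 108 (median 0.02). Il6ra, the subunit that binds interleukin 6, had 1 higher and 1 lower of 11 regions (844 and 990 counts, fold 0.901, 0.821 to 0.989). The known STAT target genes had 14 higher and 3 lower of 107 regions (13.1% and 2.80%, median 0.21). In that list Nfkbiz, which encodes a nuclear IκB protein, had 6 higher and 0 lower of 16 regions, with 1412 counts in the stretched and 819 in the control library (fold 1.82, 1.67 to 1.99). Without replicates none of these shares can be called different from the background.

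**Figure D5:**
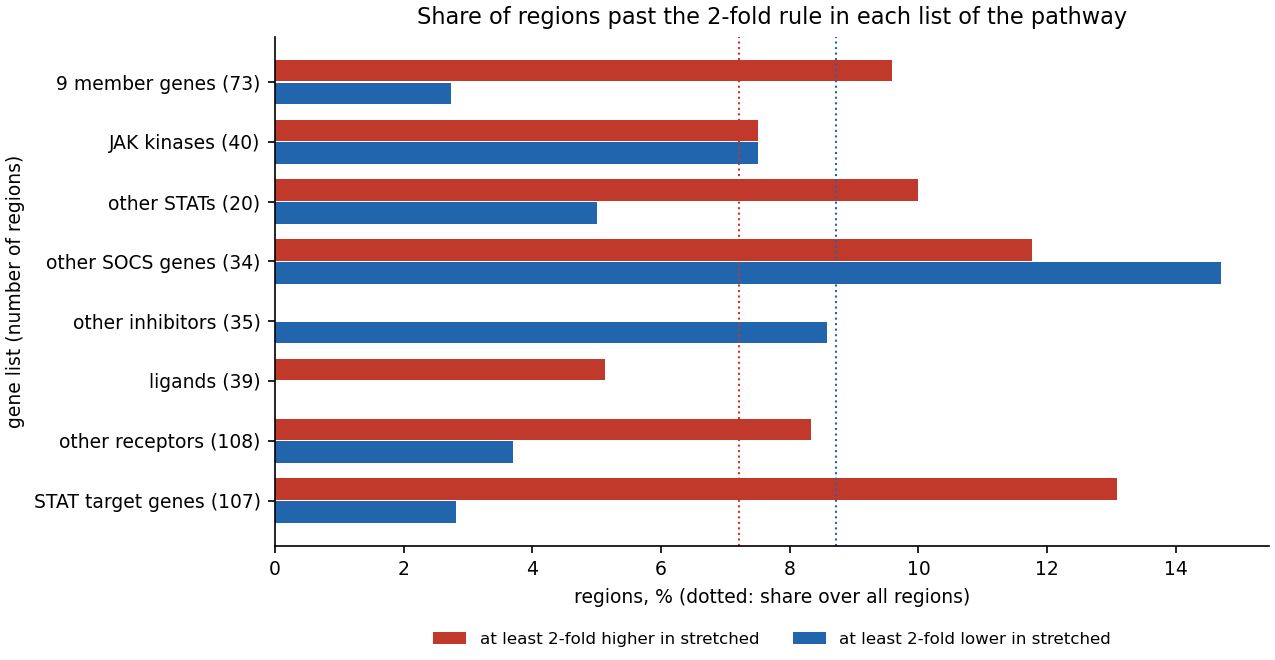
Share of regions at least 2-fold higher (red) and lower (blue) in the stretched library for the 9 genes and for each of the 7 pathway lists, with the number of regions in brackets and dotted lines at the shares over all regions (7.22% higher, 8.71% lower). STAT target genes have the highest share of higher regions (13.1%), the other SOCS genes the highest share of lower ones (14.7%), and the other inhibitors have no higher region.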

How the data were processed

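Open chromatin was measured by ATAC-seq in 2 libraries, 1 stretched and 1 control, grouped by the treatment label. Per the submitters' processing notes, the build was GRCm38 and the tools were MACS2 2.1.0.20151222, HTSeq, Bowtie2 2.2.6, Picard and SAMtools. The deposited counts are raw counts per merged region. The counting program, the treatment of duplicates and of Tn5 shifts and the way regions were merged: not given in the sources used here. Per the file headers, the authors called peaks with MACS2 on each library alone, from paired-end fragments without a control file at a q cutoff of 0.05, with 23876613 fragments kept in the stretched and 31944854 in the control library. The deposited pileup is a signal in fragments at each summit, and the deposited fold enrichment (a ratio) and -log10 of p-values and q-values set each summit against its library's local background; these are the authors' own values. Region starts in the deposited count files were read as 0-based, since after adding 1 they matched 11046 stretched and 13102 control peak starts and as written 0, and are printed 1-based.

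Counts were scaled with TMM factors (edgeR 4.0.16, R 4.3.3). A region was called at 2-fold or more with at least 20 summed counts and an exact Clopper-Pearson 95% interval excluding 1. Gene spans, start sites and promoter sequences came from RefSeq (GRCm38), and a region within 1 kb of a start of its gene was taken as its start region. Without molecular identifiers, counts need not be independent molecules. The 9 genes and the gene lists were chosen with earlier results of these data known. Of the 9 genes, values are given for called regions, the start region and the one with most counts, and other regions mainly by range; of each pathway list the gene with the most called regions is named (ties by summed count). Neighbouring genes, other regions of the 9 genes and the genes under other observations were named after their values were seen. Alternatives were other scalings (DESeq2 1.42.0 size factors among them), limits and distances. Scripts ran in Python 3.11.15 with numpy 2.4.6, pandas 2.3.3, scipy 1.17.1, statsmodels 0.14.6 and matplotlib 3.10.9.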

Additional observations from a re-analysis of the deposited data

How the results depend on the processing

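No paired analysis was possible because each group has 1 library, and for the same reason no replicate could be left out. Of the 9 genes' regions, 7 were higher and 2 lower in the stretched library. The higher count was 0 under scaling by total counts, 3 with at least 50 or at least 100 counts, 11 at 1.5-fold, 1 at 3-fold, 3 with a stricter interval, 3 within 10 kb, 1 with only regions that overlap the gene span and 3 with only regions that hold a listed peak. The lower count was 11 under scaling by total counts, 4 under scaling by counts outside regions with over 10000 counts, 4 with no count minimum, 0 with at least 50 or at least 100 counts, 6 at 1.5-fold, 0 at 3-fold, 0 with the stricter interval, 0 for regions that overlap the gene span and 1 for regions with a listed peak. The count of all regions called was 15109 (6846 higher, 8263 lower), 23633 under total scaling (1590 and 22043), 7500 at 50 counts, 3174 at 100 counts, 26863 at 1.5-fold, 4717 at 3-fold and 7108 with the stricter interval. Scaling by counts outside the large regions shifted the typical region to a log2 fold of -0.14 and gave 4663 higher and 11172 lower. The summed fold turned below 1 at Il6st (0.955) and Il4ra (0.999) under total scaling, and at Socs1 (0.821) under total scaling, with a trend on count removed (0.866) and with the median of like regions removed (0.904, chosen after the data were seen). Total scaling lowers every stretched fold by construction, and the cause of the other differences was not tested. Regions under 100 counts have wide intervals, so depth limits most single regions of these genes.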

Other observations

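Among the other receptor genes, Crlf2 had a start region past the 2-fold limit. The gene encodes the receptor subunit for thymic stromal lymphopoietin, a cytokine made by keratinocytes. The region chr5:109556826-109559014 held 372 counts in the stretched and 93 in the control library (fold 4.23, 3.36 to 5.36), and the 5 regions of the gene summed to 478 and 182 (fold 2.78, 2.34 to 3.31). The gene of its ligand, Tslp, had 278 and 250 counts over 2 regions (fold 1.18, 0.987 to 1.40). Il7r, which encodes the subunit that pairs with the Crlf2 product, had 208 and 114 counts (fold 1.93, 1.53 to 2.44).

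Il13ra1, which pairs with the Il4ra product, had 2 of 4 regions higher in the stretched library (203 and 126 counts, fold 1.70, 1.36 to 2.14), and Il13ra2, a decoy receptor for interleukin 13, had 2 of 7 higher (171 and 110, fold 1.64, 1.28 to 2.11). Both of these genes lie on chromosome X, where 19.6% of 1670 regions were higher, 3.59% were lower and the median log2 fold was 0.44. On chromosome Y, with 32 regions, the median was -0.58 and 37.5% were lower. The sources used here do not give the sex of the mice, and its part in these values cannot be told apart from that of stretching.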
